A study of Mus musculus with 12 samples.

Results

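The enzymes and carriers that take glucose to lactate, and those of the pentose phosphate branch, were followed in 3T3-L1 adipocytes given the plant alkaloid berberine. The set held 36 named genes, taken as the probe sets of the array that the platform annotation assigns to one of these symbols alone. Of the 36 genes, 33 had such a probe set, 71 probe sets in all of the 45101 on the array. Gpi1, Eno1 and G6pdx had none with their symbol alone and were not analysed here. Gapdh was covered by 3 control probe sets, Pgam2 lay under the detection threshold on every array, and the other 31 genes were tested. Each tested gene was represented by its brightest probe set that passed the filter on dim values, with the _x_at type taken only where no other type passed.

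3T3-L1 is a mouse fibroblast line that turns into fat cells under hormones, here IBMX at 0.5 mM, dexamethasone at 1 µM and insulin at 5 µg/ml for 48 h. All groups were used at days 8 to 10 after 12 h in DMEM with bovine serum albumin at 0.2%. Cells received the solvent DMSO as control, or 5 µM berberine for 3 h, 6 h or 12 h, with 3 arrays in each of the 4 groups. The study asked how gene expression changes under this treatment. The labels do not give the duration of the DMSO incubation, so an effect of berberine and one of time in culture cannot be told apart, and all berberine times share the same 3 DMSO arrays. They also do not say that arrays came from separate cultures, so the spread behind the p-values may be technical only.

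Glycolysis splits glucose into pyruvate in the cytosol and yields ATP without oxygen; lactate dehydrogenase then turns pyruvate into lactate, which leaves the cell through monocarboxylate carriers. The pentose phosphate branch takes off glucose 6-phosphate and delivers NADPH, which fat cells use to build fatty acids, and ribose for nucleotides. Many glycolytic genes are textbook targets of hypoxia-inducible factors (HIF), which bind DNA at the core letters ACGTG or GCGTG.

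For several members the bases before the start sites are shown, with the core ACGTG and GCGTG in capitals. The core is marked whichever strand carries it (CACGT or CACGC where it is the other one). The sequences are the 250 bases before the start site (the start farthest upstream where RefSeq has several), read 5′ to 3′ on the gene's strand, from RefSeq on GRCm38.p6. The first 4 belong to genes that were lower at 12 h, and Pgk1, with the same letters, is set beside them because it did not pass the test at any time.
Slc2a1, chr4:119108495-119108744, forward strand: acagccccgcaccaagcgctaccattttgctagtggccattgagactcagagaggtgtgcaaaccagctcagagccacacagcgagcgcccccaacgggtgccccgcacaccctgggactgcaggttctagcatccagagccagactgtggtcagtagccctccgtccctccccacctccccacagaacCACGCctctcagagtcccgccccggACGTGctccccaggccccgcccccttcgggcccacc
Hk2, chr6:82774455-82774704, reverse strand: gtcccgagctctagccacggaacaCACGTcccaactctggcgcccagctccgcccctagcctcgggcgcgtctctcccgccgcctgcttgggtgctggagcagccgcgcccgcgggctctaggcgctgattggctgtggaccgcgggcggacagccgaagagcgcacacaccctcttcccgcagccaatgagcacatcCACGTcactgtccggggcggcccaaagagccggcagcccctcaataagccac
Pfkl, chr10:78009808-78010057, reverse strand: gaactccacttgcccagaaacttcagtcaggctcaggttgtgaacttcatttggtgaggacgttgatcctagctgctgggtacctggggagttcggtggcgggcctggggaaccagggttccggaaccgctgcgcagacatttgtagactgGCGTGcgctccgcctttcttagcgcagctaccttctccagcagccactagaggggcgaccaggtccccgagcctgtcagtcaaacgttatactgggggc
Ldha, chr7:46845554-46845803, forward strand: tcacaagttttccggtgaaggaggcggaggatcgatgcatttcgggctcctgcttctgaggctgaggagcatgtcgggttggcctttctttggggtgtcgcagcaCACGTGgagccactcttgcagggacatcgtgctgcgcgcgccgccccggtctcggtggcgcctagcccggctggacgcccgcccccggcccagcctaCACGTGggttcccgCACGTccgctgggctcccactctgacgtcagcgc
Pgk1, chrX:106186850-106187099, forward strand: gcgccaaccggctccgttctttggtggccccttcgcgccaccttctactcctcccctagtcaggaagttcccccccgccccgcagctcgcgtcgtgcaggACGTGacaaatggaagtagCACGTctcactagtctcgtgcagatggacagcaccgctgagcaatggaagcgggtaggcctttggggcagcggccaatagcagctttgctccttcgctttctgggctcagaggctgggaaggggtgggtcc
The Ldha window held 5 matches, 4 of them in overlapping pairs that share CACGTG, the Slc2a1, Hk2 and Pgk1 windows 2 each and the Pfkl window 1. Of the 31 tested members, 26 (83.9%) had at least 1 match in a window, against 60.7% of the 9806 tested genes found in the promoter table. Over single windows, 77.3% of 44 member windows held a match, as did 54.8% of 12551 windows of tested genes and 38.6% of all 32851 windows. The median GC content was 59.4% in member windows and 59.6% in those of all tested genes. A match was present in 13 of 15 members that passed the test against DMSO at 1 or more times and in 13 of 16 that did not. A match describes these letters only and is not a binding site, and a part of HIF in the changes was not tested.

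The arrays give log2 signals on 1 scale per probe set, so that levels of different genes are not compared. A probe set was treated as detected at a log2 signal of 5.77 or more, the median of all values, and 47.9% to 51.6% of the probe sets of an array reached it. Arrays of 1 group correlated across probe sets (Pearson's r) at 0.910 to 0.924 and arrays of different groups at 0.907 to 0.923. The adipocyte markers listed for this check (8 of 10 on the array) were detected in all groups. Their summed signal was 157985 to 203532 with DMSO, 194491 to 217171 at 6 h and 171690 to 189860 at 12 h. Of these 8, 4 were higher and 2 lower at 6 h, and 1 was higher and 4 lower at 12 h by limma, beside 14.2% and 28.2% of all genes called in either direction. At 12 h their log2 changes ran from -1.44 for the lipid droplet gene Cidec to 0.32 for the lipase gene Lpl. Fibroblast markers (9 of 10) summed to 93026 to 109753 with DMSO, 106983 to 113918 at 6 h and 107829 to 113029 at 12 h. Of these 9, 3 were higher and 2 lower at 6 h, and 2 were higher and 2 lower at 12 h. Of 6 macrophage markers 3 were detected, at a summed signal of 344 to 395 with DMSO and 307 to 431 at 12 h, and Adgre1, Ptprc and Itgam were under the threshold. All 4 endothelial markers were under it by group mean in every group. The part of these markers in the results below was not tested, and fewer cells of a type cannot be told apart from less RNA per cell.

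The members that passed the test against DMSO were all lower after berberine: none of the 31 tested members passed the test as higher against DMSO at 3, 6 or 12 h. At 3 h, 2 of 31 members fell, the glucose transporter gene Slc2a1 and the hexokinase gene Hk2. At 6 h, 9 of 31 fell, and at 12 h, 12 of 31. These calls used limma's moderated test over 12136 genes and a Benjamini-Hochberg adjusted p of less than 0.05. Over all genes tested, 1.9% were called at 3 h, 14.2% at 6 h and 28.2% at 12 h. Lower calls made up 0.816%, 6.98% and 14.6% of all genes, and higher calls 1.09%, 7.24% and 13.7%. At an unadjusted p under 0.05, 1 member was higher at 3 h and 0 at 6 h or 12 h. Lower at this limit were 7, 14 and 18 members. All genes were not counted at it, but their lower share cannot be under the adjusted 0.816%, 6.98% and 14.6%. No trait of the members is therefore read from these unadjusted counts. The alternatives run gave 0 higher members against DMSO by adjusted p. Among the members the called share was 6.45%, 29% and 38.7%, all of it lower.

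The median log2 change of the members was -0.08 at 3 h, -0.20 at 6 h and -0.25 at 12 h, while that of all genes tested was 0.02, 0.01 and -0.01. The 3 berberine arrays lay wholly on one side of the DMSO arrays in 8, 11 and 15 members, against 19%, 29.9% and 39.4% of all genes. limma's F test, which takes the 3 times against DMSO together, called 15 of 31 members and 25.1% of all genes.

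**Figure D1:**
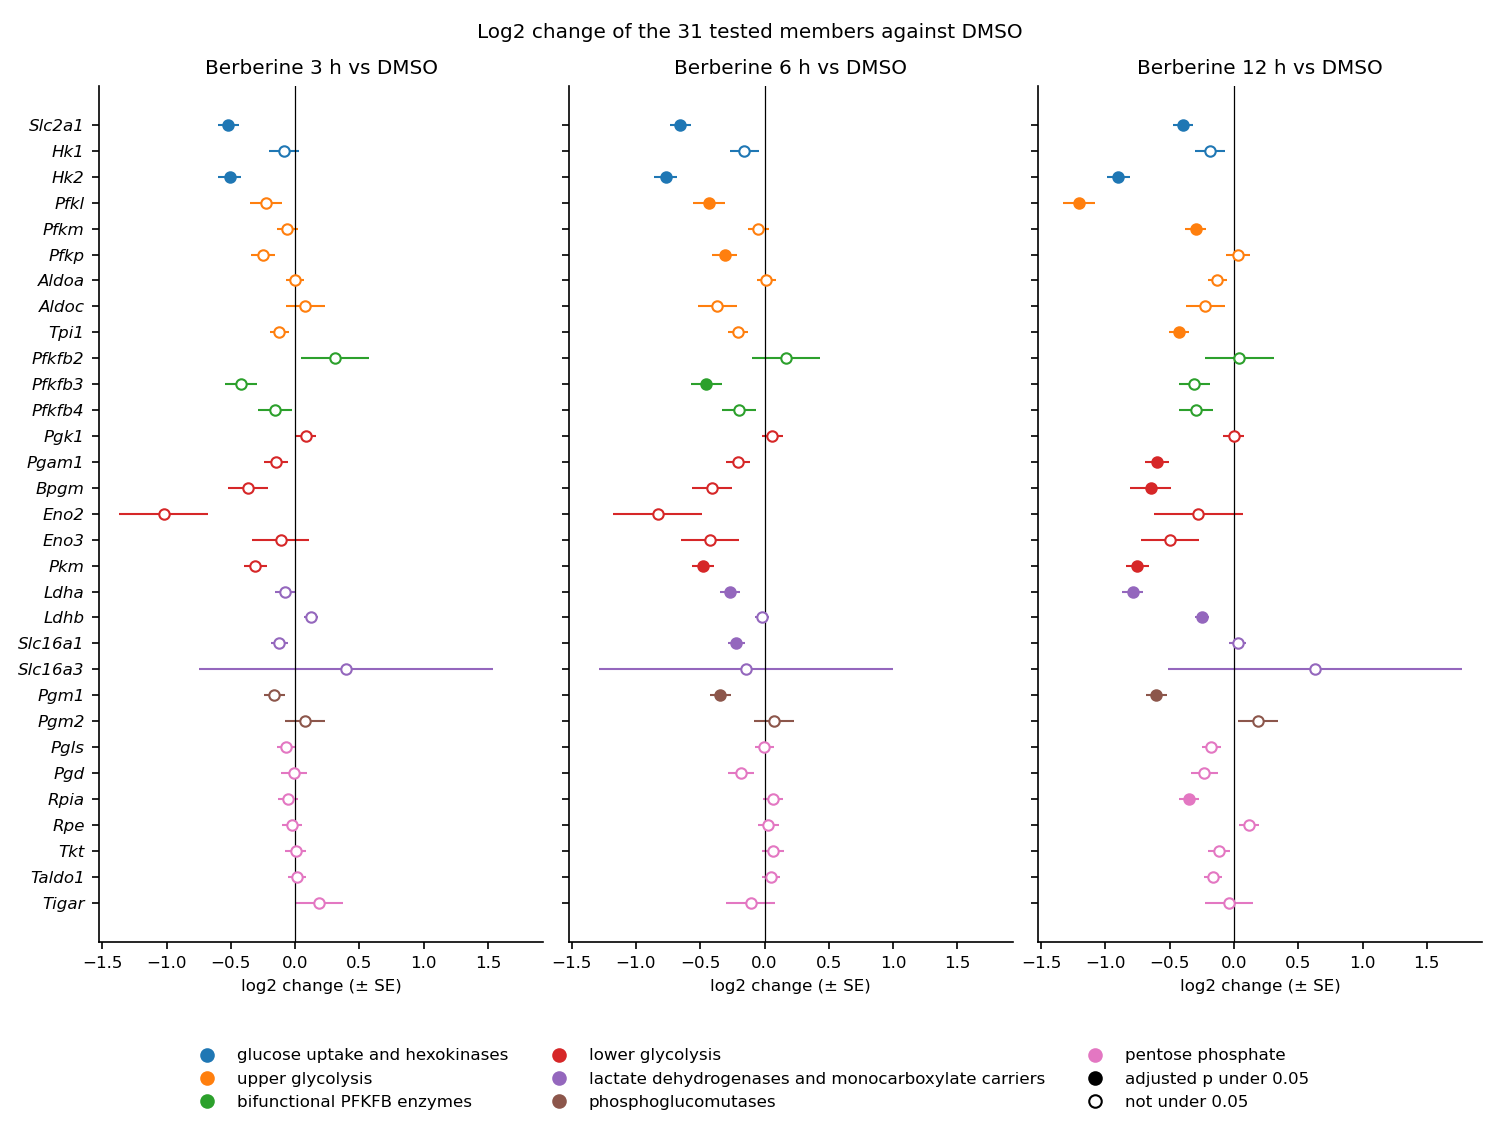
Log2 change (x axis) of each of the 31 tested members (y axis, grouped and coloured by role) at 3, 6 and 12 h of berberine against DMSO; bars are limma's standard errors and filled points have an adjusted p under 0.05. Filled points, 2 at 3 h, 9 at 6 h and 12 at 12 h, all lie left of 0; the open points of Slc16a3 rest on signals under the threshold.

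Of the 3 genes of glucose uptake and hexokinases, Slc2a1 and Hk2 were lower at all 3 times and Hk1 did not pass at any. Slc2a1 encodes GLUT1, the glucose transporter that works without insulin. Its log2 signal was 12.25, 12.05 and 12.11 with DMSO, 11.63, 11.66 and 11.56 at 3 h, 11.46, 11.40 and 11.59 at 6 h and 11.87, 11.57 and 11.77 at 12 h. All 9 berberine arrays lay under all 3 DMSO arrays, lowest at 6 h. Slc2a1 was 1.43-fold lower at 3 h (-0.52 ± 0.08 SE on the log2 scale, adjusted p = 0.00136), then 1.57-fold lower at 6 h (-0.65 ± 0.08 SE on the log2 scale, adjusted p = 3.47e-05), and 1.32-fold lower at 12 h (-0.40 ± 0.08 SE on the log2 scale, adjusted p = 0.00107). Its other 2 probe sets gave log2 changes of -0.56 and -0.37 at 3 h, -0.73 and -0.73 at 6 h and -0.33 and -0.39 at 12 h. At 3 h the second of these did not pass (adjusted p = 0.104, limma over 25056 probe sets, 0.998% of them called at this time).

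Hexokinases trap glucose in the cell as glucose 6-phosphate, and Hk2 encodes the form typical of insulin-sensitive tissue. Hk2 had log2 signals of 12.47, 12.13 and 12.51 with DMSO, 11.79, 11.79 and 12.01 at 3 h, 11.55, 11.60 and 11.65 at 6 h and 11.40, 11.43 and 11.60 at 12 h. Its berberine arrays lay under the DMSO arrays at each time and the group means fell from one time to the next. Hk2 was 1.42-fold lower at 3 h (-0.51 ± 0.09 SE on the log2 scale, adjusted p = 0.00479), 1.70-fold lower at 6 h (-0.77 ± 0.09 SE on the log2 scale, adjusted p = 2.67e-05) and 1.86-fold lower at 12 h (-0.90 ± 0.09 SE on the log2 scale, adjusted p = 1.16e-06). At 3 h the adjusted p was 0.0796 when the variance was not modelled on intensity. The more widely expressed Hk1 had log2 signals of 9.74, 9.68 and 9.90 with DMSO, 9.86, 9.45 and 9.75 at 3 h, 9.72, 9.65 and 9.48 at 6 h and 9.59, 9.41 and 9.75 at 12 h, and its groups overlapped at every time. Changes of Hk1 were -0.09, -0.16 and -0.19 with SE 0.12, and none passed (adjusted p = 0.816, 0.429 and 0.26 by limma). Whether Hk2 and Hk1 differ in response was not tested.

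Phosphofructokinase commits glucose to glycolysis, and its liver, muscle and platelet forms are encoded by Pfkl, Pfkm and Pfkp. Pfkl was called at 6 h and 12 h, Pfkm at 12 h and Pfkp at 6 h, and whether the 3 genes differ in response was not tested. Log2 signals of Pfkl were 9.71, 9.35 and 9.59 with DMSO, 9.53, 9.15 and 9.29 at 3 h, 9.16, 9.13 and 9.07 at 6 h and 8.23, 8.56 and 8.25 at 12 h. The 12 h arrays lay far under all others. Pfkl was 2.30-fold lower at 12 h (-1.20 ± 0.12 SE on the log2 scale, adjusted p = 1.33e-06), after -0.23 at 3 h (adjusted p = 0.444) and -0.43 at 6 h (adjusted p = 0.0272). The 6 h call ended without DMSO replicate 1 (adjusted p = 0.13) or 3 (0.0769), and without 6 h replicate 1 (0.0516), 2 (0.0677) or 3 (0.0804). It also ended when no intensity trend was fitted (0.067) and for the mean of probe sets (0.0851). The size at 12 h differed between probe sets, with -0.64 (adjusted p = 0.00589) in the second and -0.22 (0.73) in the dimmest, and -0.69 for their mean.

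Pfkm had log2 signals of 10.54, 10.52 and 10.55 with DMSO, 10.64, 10.39 and 10.40 at 3 h, 10.62, 10.43 and 10.41 at 6 h and 10.19, 10.22 and 10.30 at 12 h. Its 12 h arrays lay under all 9 others, and 1 array each of the 3 h and 6 h groups lay above the DMSO arrays. Pfkm was 1.23-fold lower at 12 h (-0.30 ± 0.08 SE on the log2 scale, adjusted p = 0.0107), with changes of -0.06 and -0.05 at the earlier times. Pfkp had log2 signals of 11.10, 10.61 and 10.85 with DMSO, 10.57, 10.65 and 10.58 at 3 h, 10.48, 10.59 and 10.56 at 6 h and 10.89, 10.82 and 10.96 at 12 h. At 6 h all its arrays were under those of DMSO, and at 12 h they were inside the DMSO range. Pfkp was 1.24-fold lower at 6 h (-0.31 ± 0.09 SE on the log2 scale, adjusted p = 0.0346), a call that ended without DMSO replicate 1 (0.199, log2 change -0.19) or 3 (0.0748) and without 6 h replicate 1 (0.107), 2 (0.0652) or 3 (0.0703). With no intensity trend the adjusted p was 0.106, with only the arrays compared 0.0808, and with the mean of probe sets 0.196. Pfkp had a change of -0.25 at 3 h, which did not pass (adjusted p = 0.217, or 0.0251 without DMSO replicate 2), and of 0.03 at 12 h (0.84). A dimmer Pfkp probe set gave 0.00049, -0.17 and 0.41 at 3, 6 and 12 h, none called.

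**Figure D2:**
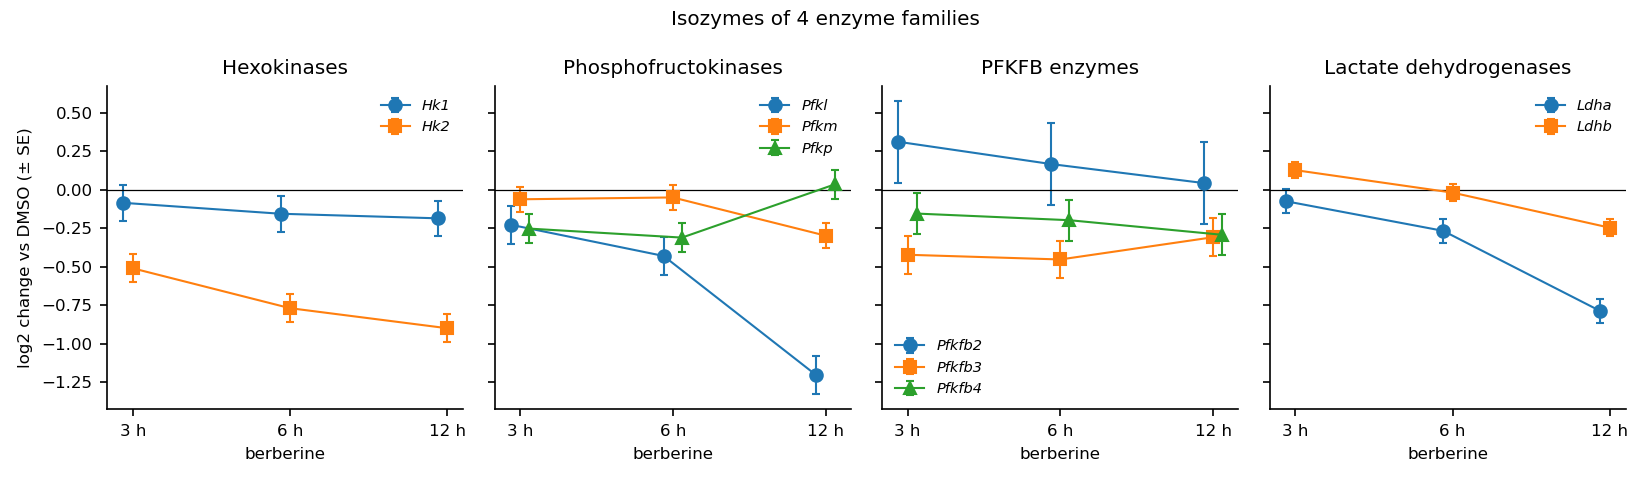
Log2 change against DMSO (y axis, bars are limma's standard errors) at 3, 6 and 12 h of berberine (x axis) for the genes of 4 enzyme families, 1 colour per gene. Hk2 lies under Hk1 at each time, Pfkl reaches -1.20 at 12 h where Pfkp is at 0.03, and Ldha reaches -0.79 where Ldhb is at -0.25. Each gene is shown by 1 probe set, and differences between the genes of a family were not tested.

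The PFKFB enzymes make and remove fructose 2,6-bisphosphate, the strongest activator of phosphofructokinase, and Pfkfb3 encodes the form with the highest ratio of making to removing it. Pfkfb3 had log2 signals of 9.98, 9.79 and 9.83 with DMSO, 9.30, 9.59 and 9.44 at 3 h, 9.65, 9.18 and 9.41 at 6 h and 9.37, 9.59 and 9.73 at 12 h. Every berberine array lay under the DMSO arrays, but the spread within the berberine groups was wide. Pfkfb3 passed at 6 h only: it was 1.37-fold lower at 6 h (-0.45 ± 0.12 SE on the log2 scale, adjusted p = 0.0184), against -0.42 at 3 h (adjusted p = 0.0932) and -0.31 at 12 h (0.0683). The 6 h call ended without DMSO replicate 1 (0.0859) or 6 h replicate 2 (0.105), with no trend (0.0685) and for the mean of probe sets (0.414). The 12 h change passed without 6 h replicate 1 (0.0468) or 2 (0.0472), which enter it through the shared spread, without 12 h replicate 3 (0.0392), and with only the arrays compared (0.0495). A dimmer probe set near the threshold gave 0.09, -0.55 and 0.77 at 3, 6 and 12 h (adjusted p = 0.982, 0.719 and 0.504 by limma over probe sets). For the mean of both the 12 h change was 0.23 and did not pass, so the direction at 12 h depends on the probe set.

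Pfkfb4, a PFKFB form of testis and tumours, had log2 signals of 9.11, 9.37 and 9.29 with DMSO, 8.80, 9.33 and 9.17 at 3 h, 9.11, 9.15 and 8.91 at 6 h and 9.00, 9.09 and 8.80 at 12 h. Its 12 h arrays lay under the DMSO arrays, and its changes of -0.16, -0.20 and -0.29 did not pass (adjusted p = 0.673, 0.37 and 0.111). Pfkfb2, the heart form, had log2 signals of 6.90, 6.93 and 7.07 with DMSO, 7.16, 6.99 and 7.68 at 3 h, 7.55, 6.94 and 6.91 at 6 h and 6.56, 7.47 and 6.99 at 12 h. The berberine arrays spread to both sides of the DMSO values, with changes of 0.31, 0.17 and 0.04 and an SE of 0.27, none of which passed.

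Aldolase and triose phosphate isomerase turn fructose 1,6-bisphosphate into glyceraldehyde 3-phosphate. The isomerase gene Tpi1 had log2 signals of 14.49, 14.48 and 14.58 with DMSO, 14.40, 14.42 and 14.36 at 3 h, 14.16, 14.45 and 14.32 at 6 h and 13.98, 14.25 and 14.04 at 12 h. All berberine arrays lay under the DMSO arrays, by little at 3 h and more at 12 h. Tpi1 was 1.35-fold lower at 12 h (-0.43 ± 0.08 SE on the log2 scale, adjusted p = 0.000363), and its other 2 probe sets gave -0.40 and -0.34 at 12 h (adjusted p = 0.000568 and 0.00481). At 6 h its change of -0.21 did not pass (0.079); it did without 6 h replicate 2 (0.0383) or after quantile normalization, with -0.38 (0.000168). Quantile normalization also gave a call at 3 h, from -0.12 to -0.23 (0.0343).

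The aldolase gene Aldoa is covered by 5 probe sets, all of the _x_at type, whose probes may cross-hybridise. The probe set used ranged over 14.61 to 14.96 and had log2 changes of -0.00042, 0.01 and -0.13 (adjusted p = 0.999, 0.925 and 0.205). Of its other 4 probe sets, 2 passed at 12 h with -0.36 and -0.38 and at 6 h with -0.24 and -0.19. Quantile normalization moved the probe set used to -0.23 at 6 h (adjusted p = 0.00144) and -0.29 at 12 h (4.13e-05). The mean of all 5 had a change of -0.26 at 12 h (0.00126), so the call for Aldoa depends on the probe set and the scaling. The brain aldolase gene Aldoc ranged over 8.48 to 9.26 with changes of 0.08, -0.37 and -0.22, none called. Without DMSO replicate 2 it passed at 6 h (0.0195) and 12 h (0.0499).

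Among the enzymes after glyceraldehyde 3-phosphate, 3 of 6 tested genes fell by 12 h, where 14.6% of all genes were lower, and the genes of the first steps, Gapdh and Pgk1, did not pass. Gapdh, which oxidises glyceraldehyde 3-phosphate and is a common reference gene, was measured by the 5′, middle and 3′ control probe sets. The 3′ probe set had log2 signals of 14.23, 14.07 and 14.38 with DMSO, 14.40, 14.27 and 14.20 at 3 h, 14.21, 14.45 and 14.35 at 6 h and 14.15, 14.22 and 14.15 at 12 h. Its berberine arrays overlapped DMSO at each time. Log2 changes of the 3 Gapdh probe sets were 0.14 (5′), 0.06 (middle) and 0.11 (3′) at 6 h. At 12 h that of the middle one was -0.20 (adjusted p = 0.0672) and that of the 3′ one -0.05 (0.723), and no Gapdh probe set passed at any time.

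Phosphoglycerate kinase, the first enzyme of the pathway to return ATP, is encoded by Pgk1. Log2 signals of Pgk1 were 14.56, 14.46 and 14.74 with DMSO, 14.75, 14.73 and 14.54 at 3 h, 14.56, 14.79 and 14.59 at 6 h and 14.61, 14.65 and 14.50 at 12 h, and the groups overlapped throughout. Its changes were 0.08, 0.06 and -0.00034 with an SE of 0.08 (adjusted p = 0.711, 0.702 and 0.998). Under quantile normalization they were -0.0075, -0.13 and -0.13, and the last had an adjusted p of 0.0635.

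Pgam1 encodes the mutase that moves the phosphate of 3-phosphoglycerate. Its log2 signals were 13.07, 13.36 and 13.28 with DMSO, 13.22, 13.13 and 12.91 at 3 h, 12.98, 13.09 and 13.02 at 6 h and 12.77, 12.43 and 12.72 at 12 h. The 12 h arrays lay under all others, while those of 3 h and 6 h overlapped DMSO. Pgam1 was 1.51-fold lower at 12 h (-0.60 ± 0.09 SE on the log2 scale, adjusted p = 0.000121). The muscle form Pgam2 stayed between 2.51 and 4.01 on all 12 arrays, under the threshold, and was not tested.

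Bpgm makes 2,3-bisphosphoglycerate, a side product of the same step. Bpgm had log2 signals of 9.34, 8.92 and 8.93 with DMSO, 8.65, 8.59 and 8.84 at 3 h, 8.60, 8.71 and 8.66 at 6 h and 8.55, 8.68 and 8.01 at 12 h. All berberine arrays lay under the DMSO arrays, most widely spread at 12 h. Bpgm was 1.57-fold lower at 12 h (-0.65 ± 0.16 SE on the log2 scale, adjusted p = 0.00489), and its other 2 probe sets gave -0.76 and -0.79 (adjusted p = 0.00158 and 0.0257). At 6 h its change of -0.41 had an adjusted p of 0.0975, or 0.04 without 12 h replicate 3, which enters through the shared spread.

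Enolases make phosphoenolpyruvate. Eno2, the neuronal form and a HIF target, lay near the threshold, with log2 signals of 6.90, 6.58 and 6.45 with DMSO, 6.01, 5.41 and 5.45 at 3 h, 5.41, 6.19 and 5.84 at 6 h and 6.39, 6.25 and 6.46 at 12 h. All 3 h and 6 h arrays were under the DMSO arrays, and the 12 h arrays overlapped them by 1 array. The 3 h mean of Eno2 lay under the threshold. Changes of Eno2 were -1.02, -0.83 and -0.28 with an SE of 0.35 (adjusted p = 0.164, 0.126 and 0.617). With dim values raised to the threshold they were -0.79 at 3 h (0.0264) and -0.71 at 6 h (0.0123), and without the trend the 6 h change also passed (0.0439). Eno3, the muscle form, ranged over 7.71 to 8.85 with changes of -0.11, -0.42 and -0.50, none called. At 12 h Eno3 passed without DMSO replicate 3 (0.0168) or 12 h replicate 1 (0.00929).

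Pyruvate kinase closes glycolysis, and Pkm encodes its form outside liver and blood. Pkm had log2 signals of 11.37, 11.04 and 11.14 with DMSO, 10.93, 10.87 and 10.82 at 3 h, 10.77, 10.66 and 10.68 at 6 h and 10.43, 10.58 and 10.28 at 12 h. All berberine arrays lay under the DMSO arrays and the means fell at each time. Pkm was 1.39-fold lower at 6 h (-0.48 ± 0.09 SE on the log2 scale, adjusted p = 0.00144) and 1.68-fold lower at 12 h (-0.75 ± 0.09 SE on the log2 scale, adjusted p = 5.43e-06). At 3 h its change of -0.31 did not pass (0.0877, or 0.0403 without DMSO replicate 2).

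**Figure D3:**
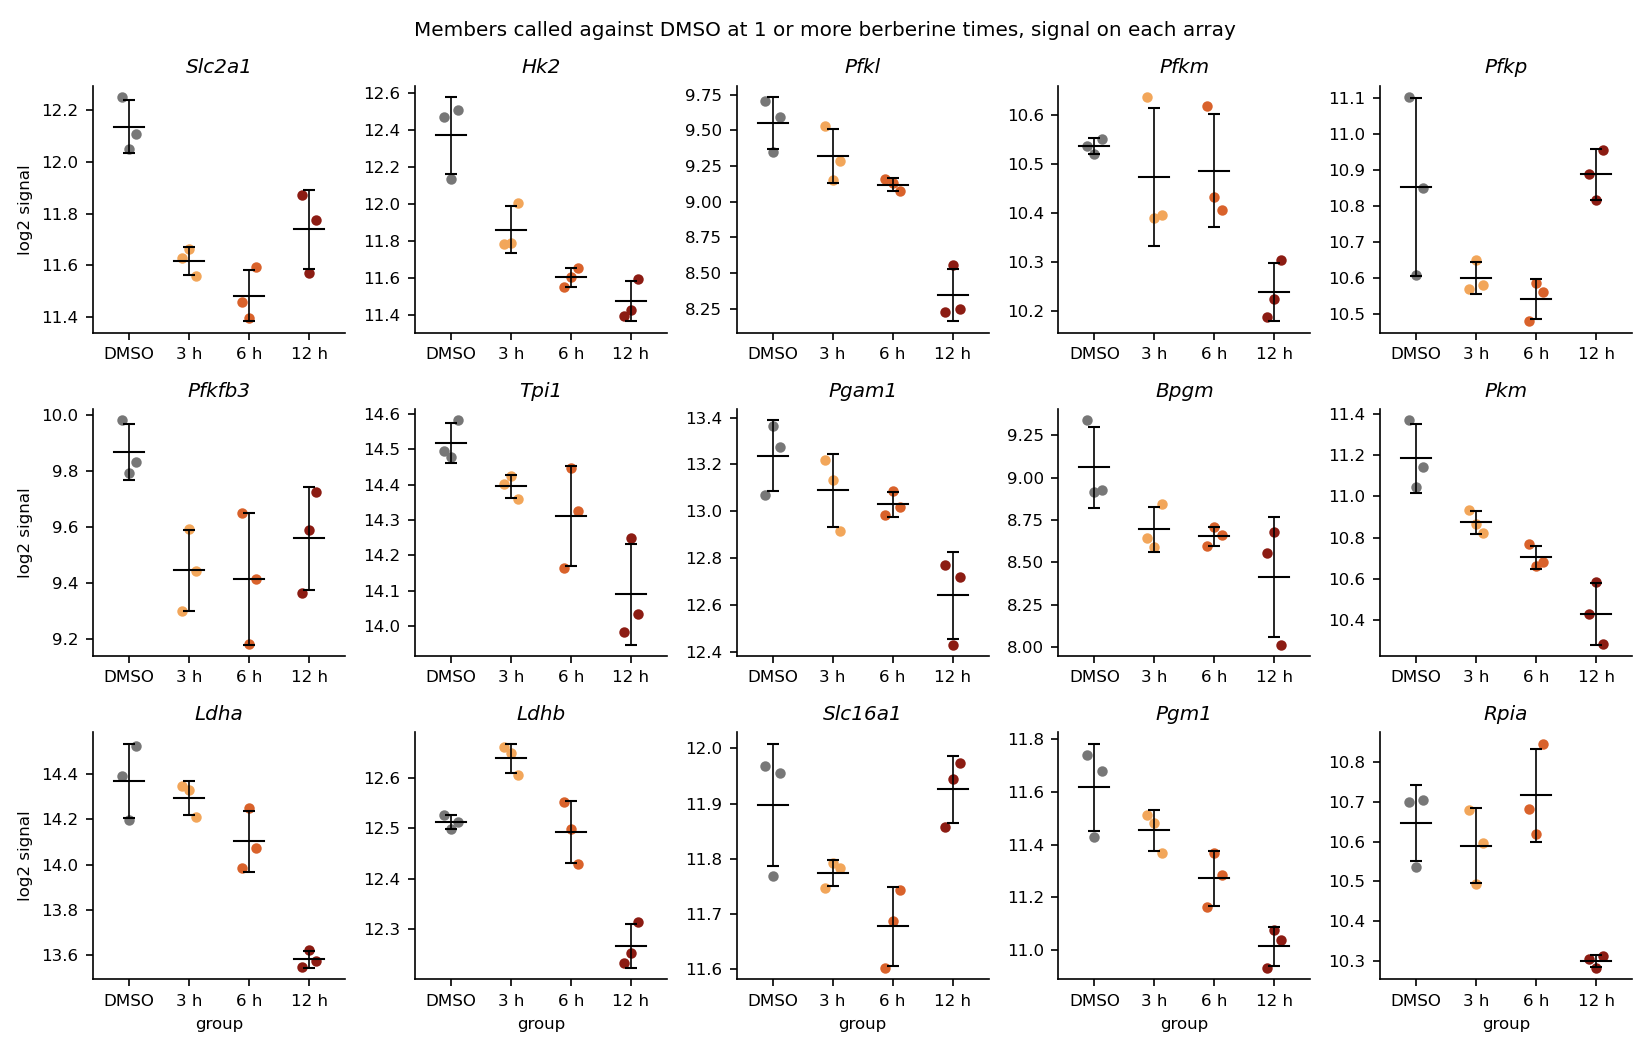
Log2 signal (y axis, its own range in each panel) on every array of the 4 groups (x axis: DMSO and 3, 6 and 12 h of berberine) for the 15 members called against DMSO at 1 or more times; points are arrays, long bars group means and whiskers SD of 3 arrays. In Pfkl, Pfkm, Pgam1, Pkm, Ldha, Ldhb, Pgm1 and Rpia the 12 h arrays stand under all 9 others. In Slc2a1, Hk2, Pfkfb3, Tpi1, Bpgm and Pkm the 3 h arrays already lie under DMSO, and of these only Slc2a1 and Hk2 were called at 3 h.

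Lactate dehydrogenase is built from the products of Ldha, which favours lactate, and Ldhb, which favours pyruvate. Ldha had log2 signals of 14.39, 14.20 and 14.52 with DMSO, 14.35, 14.33 and 14.21 at 3 h, 13.99, 14.25 and 14.07 at 6 h and 13.55, 13.62 and 13.58 at 12 h. Its 3 h and 6 h arrays overlapped DMSO, and the 12 h arrays lay close together under all the rest. Ldha was 1.73-fold lower at 12 h (-0.79 ± 0.08 SE on the log2 scale, adjusted p = 1.09e-06). It was 1.20-fold lower at 6 h (-0.27 ± 0.08 SE on the log2 scale, adjusted p = 0.0316), a call that ended without DMSO replicate 1 (0.0936) or 3 (0.127), without 6 h replicate 1 (0.138) or 3 (0.0954). The 6 h adjusted p was also over the limit without the filter (0.052), with no trend (0.114), for the mean of probe sets (0.0522) and with only the arrays compared (0.0723).

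Ldhb had log2 signals of 12.53, 12.50 and 12.51 with DMSO, 12.66, 12.65 and 12.61 at 3 h, 12.55, 12.50 and 12.43 at 6 h and 12.23, 12.25 and 12.31 at 12 h. The 3 h arrays lay above and the 12 h arrays under the DMSO arrays. Ldhb was 1.19-fold lower at 12 h (-0.25 ± 0.05 SE on the log2 scale, adjusted p = 0.00224), and its change at 3 h, 0.13, did not pass (0.301). Its other 3 probe sets gave -0.29, -0.29 and -0.20 at 12 h, of which the last did not pass (0.124). At 3 h they gave -0.02, -0.03 and 0.07, none called, so the direction at 3 h depends on the probe set. Whether Ldha and Ldhb differ in response was not tested.

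Lactate leaves fat cells through monocarboxylate carriers, MCT1 (Slc16a1) and MCT4 (Slc16a3). Slc16a1 had log2 signals of 11.97, 11.77 and 11.96 with DMSO, 11.75, 11.79 and 11.78 at 3 h, 11.60, 11.69 and 11.74 at 6 h and 11.86, 11.95 and 11.97 at 12 h. The 6 h arrays lay just under the DMSO arrays and the 12 h arrays overlapped them. Slc16a1 was 1.16-fold lower at 6 h (-0.22 ± 0.07 SE on the log2 scale, adjusted p = 0.0322), with 0.03 at 12 h. The 6 h call ended without DMSO replicate 1 (0.134) or 3 (0.103), without 6 h replicate 1 (0.121) or 2 (0.0773), with no trend (0.0801) and with only the arrays compared (0.0772). Slc16a3 was dim, with log2 signals of 2.65, 5.17 and 5.23 with DMSO, 6.05, 5.89 and 2.31 at 3 h, 3.58, 5.26 and 3.77 at 6 h and 5.65, 5.96 and 3.34 at 12 h. All 4 group means of Slc16a3 were under the threshold, it passed the filter through 3 single arrays, and no fold is given.

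Phosphoglucomutase joins glycolysis to glycogen. Pgm1 had log2 signals of 11.74, 11.43 and 11.68 with DMSO, 11.51, 11.48 and 11.37 at 3 h, 11.16, 11.37 and 11.28 at 6 h and 10.93, 11.07 and 11.04 at 12 h. The 6 h and 12 h arrays lay under the DMSO arrays. Pgm1 was 1.27-fold lower at 6 h (-0.35 ± 0.08 SE on the log2 scale, adjusted p = 0.00937) and 1.52-fold lower at 12 h (-0.60 ± 0.08 SE on the log2 scale, adjusted p = 2.85e-05), while a dimmer probe set gave -0.05 and 0.44 (adjusted p = 0.959 and 0.448). With the mean of both probe sets Pgm1 had changes of -0.20 (0.488) and -0.08 (0.768), and without DMSO replicate 1 the 6 h adjusted p was 0.0581. Pgm2, which acts mainly on ribose phosphates, had log2 signals of 8.33, 8.38 and 8.25 with DMSO, 8.38, 8.65 and 8.17 at 3 h, 8.27, 8.65 and 8.27 at 6 h and 8.34, 8.75 and 8.44 at 12 h. Its groups overlapped, and changes of 0.08, 0.08 and 0.19 did not pass.

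In the pentose phosphate branch 1 of 7 tested genes fell, at 12 h, where 14.6% of all genes were lower, and none at 3 h or 6 h. Rpia, the ribose 5-phosphate isomerase gene, had log2 signals of 10.70, 10.54 and 10.70 with DMSO, 10.68, 10.49 and 10.60 at 3 h, 10.68, 10.62 and 10.85 at 6 h and 10.30, 10.28 and 10.31 at 12 h. Its 12 h arrays lay close together under all others. Rpia was 1.27-fold lower at 12 h (-0.35 ± 0.08 SE on the log2 scale, adjusted p = 0.00275), after -0.06 and 0.07. Of the oxidative steps, the lactonase gene Pgls ranged over 11.53 to 11.92 and had log2 changes of -0.07, -0.0011 and -0.18, and the last was called without 12 h replicate 2 (0.0142).

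Pgd, the 6-phosphogluconate dehydrogenase gene and a source of NADPH, ranged over 10.90 to 11.49 and had log2 changes of -0.0096, -0.18 and -0.23 (adjusted p = 0.985, 0.28 and 0.108). Its 12 h change passed without DMSO replicate 2 (0.0277) or 12 h replicate 3 (0.0329). Its probe sets disagreed at 12 h, where 1 of the other 3 gave -0.66 (adjusted p = 0.0167) and the others -0.01 and 0.0077. At 6 h their changes were -0.79 (0.0125), -0.31 (0.00383) and -0.28 (0.141), and the mean of all 4 passed, with -0.39 (0.0208).

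The epimerase gene Rpe had log2 changes of -0.03, 0.03 and 0.12, the transketolase gene Tkt of 0.0027, 0.06 and -0.12 and the transaldolase gene Taldo1 of 0.01, 0.05 and -0.17, none of them called. Their ranges were 10.94 to 11.23, 12.92 to 13.43 and 13.41 to 13.74, and in Taldo1 the 12 h arrays lay under all DMSO arrays (0.0877, or 0.0206 after quantile normalization). The probe sets of Tkt disagreed: 1 other gave 0.27, 0.28 and 0.17 and the remaining one -0.05, -0.14 and -0.43, none called. Tigar, a p53 target whose product removes fructose 2,6-bisphosphate, ranged over 8.19 to 9.01 and had log2 changes of 0.19, -0.11 and -0.04. Another Tigar probe set gave 0.87 at 12 h (adjusted p = 0.0358) and the remaining one 0.37 (0.445), so its direction depends on the probe set.

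Probe sets other than the one used were available for 16 tested members, 30 probe sets in all. Of the 30, the sign was that of the probe set used in 19 at 3 h, 22 at 6 h and 23 at 12 h. For the genes called at 12 h, 12 further probe sets passed the filter, 11 of them had a change below 0 and 9 were called, with 23.3% of all 25056 probe sets called at this time. At 6 h, 7 of 7 were below 0 and 2 were called, with 10.5% of all probe sets called.

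**Figure D4:**
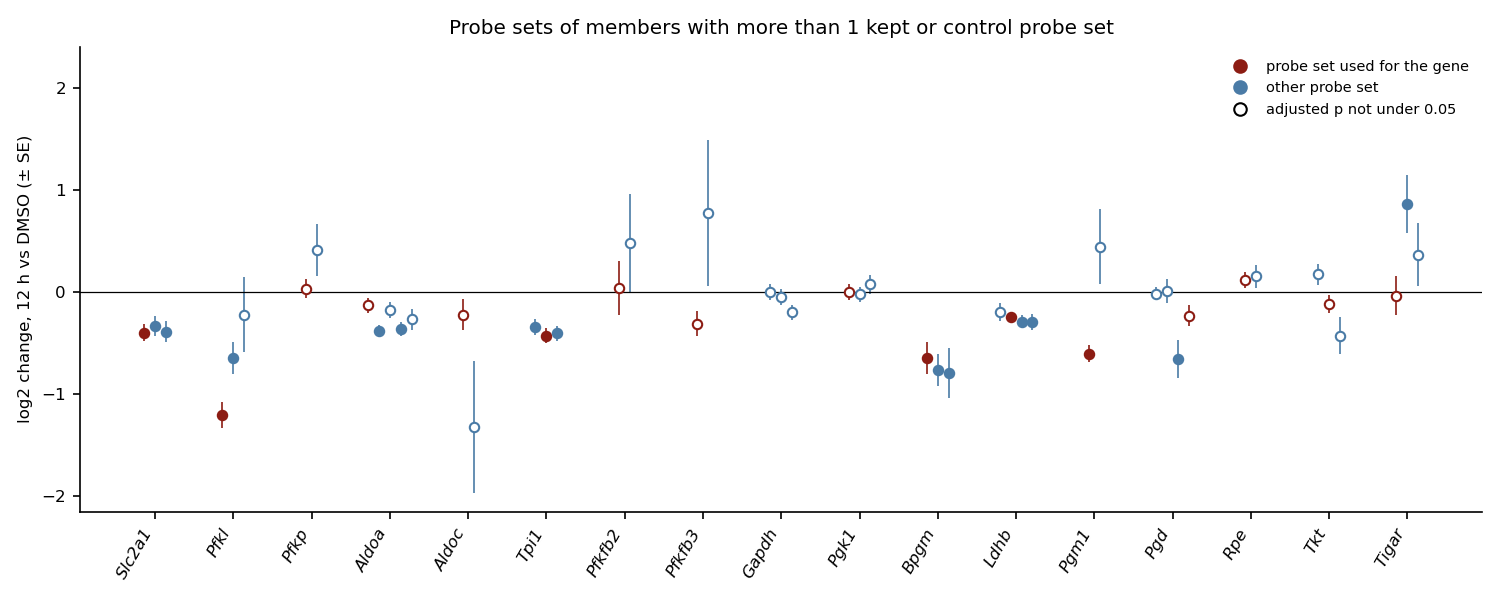
Log2 change at 12 h against DMSO (y axis, bars are limma's standard errors) for each probe set of the members with several (x axis), with the probe set used for the gene in red, others in blue and open points for an adjusted p not under 0.05. The Slc2a1, Tpi1, Bpgm and Ldhb probe sets lie together under 0. Those of genes such as Pgm1, Pfkfb3, Tkt, Tigar and Pgd spread over both sides or far from each other.

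Direct contrasts between berberine times used the DMSO arrays only for the shared spread. They called 0 of 31 members at 6 h against 3 h (2.34% of all genes), 7 at 12 h against 6 h (5.69%) and 10 at 12 h against 3 h (17.7%). At 6 h against 3 h, quantile normalization called 1 member, with 271 of all genes called. In the same contrast 5 members were lower at an unadjusted p under 0.05. All genes were not counted at this limit, so no trait of the members is read from it. Against 6 h, 5 members were lower and 2 higher at 12 h (3.18% and 2.5% of all genes), and against 3 h, 9 were lower and 1 higher (9.71% and 8.01%). Ldha was 1.43-fold lower (-0.52 ± 0.08 SE on the log2 scale, adjusted p = 0.000754) at 12 h than at 6 h, and Pfkl was 1.71-fold lower (-0.77 ± 0.12 SE on the log2 scale, adjusted p = 0.00109). For Pfkl the mean of its probe sets gave -0.29 (adjusted p = 0.297). Slc2a1 was 1 of the members with a difference above 0, 0.26 at 12 h against 6 h, which did not pass (0.0684). Without 6 h replicate 2, 3 members were called at 12 h against 6 h, and 376 of all genes (690 with every array).

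Leaving out single arrays left 2 to 4 members called at 3 h, 3 to 10 at 6 h and 12 to 14 at 12 h. Over all 12136 genes the same fits called 117 to 266, 1116 to 1771 and 2683 to 3439. At 3 h, 4 members were called without DMSO replicate 2 (249 of all genes, 231 with every array). The count at 6 h was 3 without DMSO replicate 1 (1116 of all genes, 1726 with every array). It was 5 without DMSO replicate 3 (1364) or 6 h replicate 1 (1429). Slc2a1, Hk2 and Pkm kept their 6 h call under each of the 20 alternatives run, and at 12 h 11 of the 12 called members did, the other being Pgm1. At 3 h Slc2a1 kept its call under each of the 20, and Hk2 lost it under 1.

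Other genes around the pathway, 56 on a list of further transporters, isoforms and enzymes of pyruvate, glycerol phosphate and hexose use, gave 35 tested genes. None of the 35 was called at 3 h, 3 were higher and 4 lower at 6 h, and 5 were higher and 7 lower at 12 h. The called share of the list was 0%, 20% and 34.3%, beside 1.9%, 14.2% and 28.2% of all genes. Their median log2 change was -0.05, -0.15 and -0.12. The 8 called genes with the largest changes are given as examples. Pdk1, a kinase that shuts pyruvate dehydrogenase and a HIF target, fell by 0.49 ± 0.08 (log2, SE) at 6 h and by 1.00 at 12 h (adjusted p = 0.000875 and 1.34e-07). Of the phosphatases that reopen the enzyme, Pdp1 rose by 0.37 and 0.67 and Pdp2 fell by 0.62 and 0.44. Another kinase of the enzyme, Pdk4, rose by 0.33 at 6 h (adjusted p = 0.0418). The cytosolic glycerol 3-phosphate dehydrogenase gene Gpd1 fell by 0.33 and 0.90, and the mitochondrial one, Gpd2, rose by 0.50 and 0.88 (adjusted p = 2.63e-07 and 8.74e-07 at 12 h). Prps1, which makes phosphoribosyl pyrophosphate from ribose 5-phosphate, fell by 0.26 and 0.54, and the pyruvate carboxylase gene Pcx by 0.42 at 12 h (adjusted p = 0.000117).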

How the data were processed

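Gene expression was measured in 12 samples of 3T3-L1 adipocytes on single-colour 3′ oligonucleotide arrays. The values deposited by the authors are log2 signals, 1 column per array. Per the submitters' processing notes they come from MAS5, whose release is not given in the sources used here. Their 2% trimmed mean is 500.004 on every array, so each array was scaled by 1 factor, which leaves in any bias that varies with brightness. The arrays give no read depth, and their number limits the precision.

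Of 45101 probe sets, 64 controls were left out of the gene test, 25053 others reached the threshold on at least 3 arrays, and the brightest per gene (_x_at only where there was no other) gave 12136 genes. Symbols came from the platform annotation and were matched through Entrez identifiers to RefSeq's table for GRCm38.p6, with 0 symbols changed. Tests used limma 3.58.1 in R 4.3.3 (a mean per group, 12 arrays, 8 residual degrees of freedom, intensity trend, two-sided), adjusted by Benjamini-Hochberg over all genes. A second fit ran over 25056 probe sets, the kept ones and the 3 of Gapdh. A fold change is 2 raised to the log2 difference of group means. Scripts were tested on simulated data; figures used Python 3.11.15 and matplotlib 3.10.9.

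The members and lists were chosen with earlier results of these data known. Every array is given for members both called and detected and for their isozymes (undetected Pgam2 by its range); Eno2, Pgk1 and a Gapdh probe set were added after their values were seen, and up to 8 called genes of the further list were named by size of change. Alternatives were quantile normalization, other filters, dim values raised to the threshold, no trend, the mean of probe sets, only the arrays compared, a replicate block and leaving out each array.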

Additional observations from a re-analysis of the deposited data

Results flagged for a closer look

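The signal differed between berberine times for 11 members by limma's test of one time against another, given here as log2 differences (12 h minus the earlier time) with adjusted p over 12136 genes. Of these, 9 were lower at 12 h than at the earlier time and 2 higher. Taken singly, the contrast of 12 h with 3 h called 10 of 31 members and 17.7% of all genes. That of 12 h with 6 h called 7 of 31 members and 5.69% of all genes. The share of all genes called in at least 1 of the contrasts was not counted.

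Pfkl differed by -0.98 (adjusted p = 2.9e-05) from 3 h and -0.77 (adjusted p = 0.00109) from 6 h. The mean of its probe sets gave -0.36 (0.103) and -0.29 (0.297). Ldha differed by -0.71 (adjusted p = 7.34e-06) and -0.52 (adjusted p = 0.000754), and kept both calls under each alternative. Rpia differed by -0.29 (adjusted p = 0.015) and -0.42 (adjusted p = 0.0041), and the first ended without 3 h replicate 1 (0.0754). Hk2 differed by -0.39 (adjusted p = 0.00605) and Pkm by -0.44 (adjusted p = 0.00175) from 3 h.

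Pgam1 differed by -0.45 (adjusted p = 0.00256) and -0.39 (adjusted p = 0.0205), the second lost without 6 h replicate 2 (0.084), 6 h replicate 3 (0.0504), 12 h replicate 2 (0.103) or with no trend (0.12). Ldhb differed by -0.37 (adjusted p = 0.00011) and -0.23 (adjusted p = 0.019). The second was lost without 6 h replicates 1 and 2 (0.0772 and 0.0665), 12 h replicates 1 and 2 (0.077 and 0.065) and with no trend (0.0598). Pgm1 differed by -0.44 (adjusted p = 0.0011), against -0.01 (0.974) in the mean of its probe sets. Tpi1 differed by -0.31 (adjusted p = 0.00854), lost without 12 h replicate 1 (0.0526) or with no trend (0.051).

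Higher at 12 h were Pfkp, by 0.29 (adjusted p = 0.0437) and 0.34 (adjusted p = 0.0402), and Slc16a1, by 0.25 (adjusted p = 0.0342). Both calls of Pfkp ended when any single array of the groups compared was left out, with an adjusted p of 0.0586 to 0.129 (12 h left out) and 0.0707 to 0.118 (3 h left out) against 3 h, and of 0.0624 to 0.125 (12 h) and 0.0814 to 0.124 (6 h) against 6 h. Without an array of the remaining berberine time it was 0.0494 to 0.0523 and 0.0514 to 0.0519. Quantile normalization (0.0506 and 0.0613) and no trend (0.114 and 0.134) also ended both, and no filter the first (0.0544). The call of Slc16a1 ended without 6 h replicates 1 and 2 (0.125 and 0.0875), 12 h replicates 2 and 3 (0.0995 and 0.107) and with no trend (0.101).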

How the results depend on the processing

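Against the counts of 2, 9 and 12 members called at 3, 6 and 12 h, the fit without the intensity trend gave 1 at 3 h and 5 at 6 h, and 3 in place of 7 for 12 h against 6 h. The mean of probe sets gave 5 at 6 h, and quantile normalization gave 1 in place of 0 for 6 h against 3 h. Leaving out single arrays gave 2 to 4, 3 to 10 and 12 to 14 members against DMSO, 0 to 0 for 6 h against 3 h, 3 to 8 for 12 h against 6 h, 8 to 11 for 12 h against 3 h and 11 to 16 by the F test (15 in full). In the same order between times, these fits called 85 to 323, 376 to 754 and 1599 to 2225 of all genes. By the F test they called 2340 to 2951. Over all genes, no trend gave 93 calls at 3 h (231 as reported) and 1156 at 6 h (1726). It gave 60 for 6 h against 3 h (284) and 296 for 12 h against 6 h (690). The mean of probe sets gave 114 at 3 h, 1099 at 6 h and 146 for 6 h against 3 h. Quantile normalization gave 245, 1689 and 3424 against DMSO and 271 for 6 h against 3 h. The replicate block gave 221, 1713 and 3398 against DMSO. The causes were not tested. Quantile normalization turned the 6 h change of Aldoa from 0.01 to -0.23; the median of the members moved to -0.11, -0.23 and -0.28, with 3, 11 and 14 called, all lower. With the replicate block 2, 9 and 13 members were called against DMSO, 0, 7 and 10 between times and 15 by the F test; Pgd gained a call at 12 h (0.0366) and no other member changed its call against DMSO. Same-numbered arrays deviated from their group means with correlations of -0.037 to 0.030 (18 pairs), and differently numbered ones with -0.046 to 0.038 (36 pairs). These values cannot settle whether equal numbers mark a shared culture or day. Dim genes such as Eno2 and Slc16a3 are limited by signal near the threshold.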
